A study of Schizosaccharomyces pombe with 12 samples.

Results

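Genes with the systematic names of pre-mRNA splicing factors were followed in fission yeast, *Schizosaccharomyces pombe*, treated with Latrunculin A (LatA). LatA is a drug that sequesters actin monomers and, at low dose, impedes the actomyosin ring with which these cells divide. A probe set was included if the symbol in the array annotation began with prp, cwf, cwc, usp, sap, smd, smb, sme, smf, smg, lsm, spp or srp and ended in a number. The rule matched 81 probe sets, and *spp1* and *spp2*, which encode DNA primase subunits, were left out, which gave 79 of the 4880 fission yeast probe sets on the array. The rule used names only and no measured value. Each of the 79 probe sets stood for a different gene, and none was of the kind designed to match several transcripts.

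Many genes of this organism contain introns. An intron is removed by the spliceosome, a large machine that is rebuilt on each transcript from small nuclear ribonucleoproteins (snRNPs), particles of a small nuclear RNA and proteins. The U1 snRNP binds the start of the intron and the U2 snRNP its branch site. The tri-snRNP of U4, U6 and U5 then joins, the Prp19-Cdc5 complex activates the assembly, and RNA helicases drive the rearrangements up to release of the mRNA and the intron. Rings of Sm proteins surround the small nuclear RNAs, and a ring of the related Lsm proteins binds U6.

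The name rule did not describe 7 of the 79 genes. *srp14*, *srp54*, *srp68* and *srp72* encode proteins of the signal recognition particle, and another a subunit of its receptor, which bring ribosomes to the endoplasmic reticulum. *sap1* encodes a DNA-binding protein first known from mating-type switching, and *spp27* a factor of RNA polymerase I transcription. The other 72 encode splicing factors or Sm-like proteins, among them *lsm1*, whose product acts in cytoplasmic mRNA decay. By role they comprised 7 Sm genes, 8 Lsm genes, 9 genes of the U1 snRNP, 9 of the U2 snRNP and branch site, 8 of the tri-snRNP, 25 of the Prp19-Cdc5 complex and the cwf proteins found with it, 4 of helicases and other late factors, and 2 of SR proteins. In RefSeq, *usp104*, *usp105* and *usp106* carry the symbols *prp40*, *prp39* and *luc7*. By chromosome, 23 genes lay on chromosome I, 37 on II and 19 on III.

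Expression was measured on 12 arrays, 3 for each of 4 groups: wild-type and *set3Δ* cells, each given LatA or its vehicle DMSO. DMSO is the solvent of the drug. Cells were grown at 30 °C and treated for 3 h. The labels give the LatA dose as 0.5 mM, whereas the methods of the study give 0.5 µM for the array cultures. The *set3Δ* strain carries *set3*::KanMX, a deletion of the gene for the SET-domain subunit of a histone deacetylase complex, and was derived from a purchased deletion strain. The study does not state which of its listed strains were hybridised. Its strain list holds a wild type and a *set3Δ* strain that both carry *ura4-D18*, *leu1-32* and *ade6-216*. These have opposite mating types, so that strain and mating type cannot be told apart if these were the strains used. The list also holds a *ura4-D18 leu+* strain of the same mating type as *set3Δ*, for which *ade6-216* is not listed. Each genotype was 1 strain, and the 3 arrays of a group are labelled as biological replicates. RNA was taken from whole cultures. The array measures transcript abundance, so no value below is a measure of splicing itself.

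Values are log2 intensities relative to the median of the same probe set over the 12 arrays. A value of 0 is therefore that probe set's median, and levels cannot be compared between genes. *set3* stood between 1.97 and 2.31 on the 6 wild-type arrays and between -2.59 and -1.97 on the 6 *set3Δ* arrays, as labelled. The median of the 79 genes lay between 0.06 and 0.08 on the wild-type DMSO arrays and between -0.13 and -0.02 on the wild-type LatA arrays. It lay between -0.02 and 0.07 in *set3Δ* with DMSO and between -0.07 and 0.04 in *set3Δ* with LatA, so these 2 groups overlapped. *set3Δ* DMSO replicate 2 stood apart from its group in the study's list of induced core stress genes (CESR-UP), with a mean of -0.69 against 0.15 and -0.02 in replicates 1 and 3. The wild-type DMSO arrays stood at -0.39, -0.84 and -0.87 in that list and the wild-type LatA arrays at 0.07, 0.10 and 0.21. *set3Δ* DMSO replicate 2 thus lay within the range of the wild-type DMSO arrays, and replicates 1 and 3 above it. The median spread between replicate arrays was close to 0.1 or below for the 79 genes, with SDs of 0.07, 0.08, 0.10 and 0.07 in the 4 groups. Over all probe sets the median SDs were 0.11, 0.08, 0.11 and 0.07, in the order wild type with DMSO and LatA, then *set3Δ* with DMSO and LatA.

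**Figure D1:**
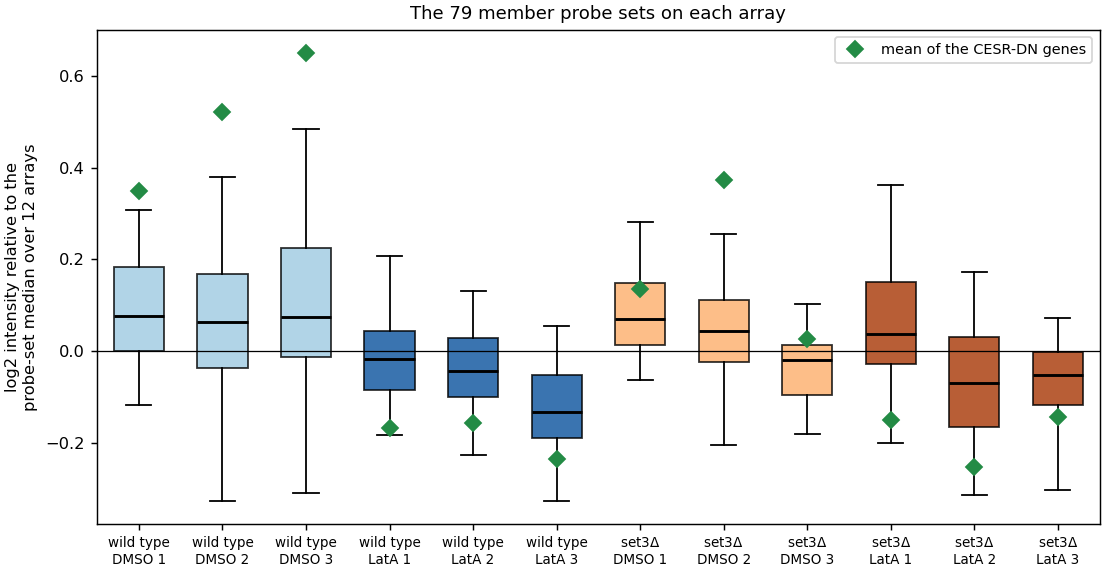
Boxes give the 79 member probe sets on each array as log2 intensity relative to the probe-set median over 12 arrays (line: median, box: quartiles, whiskers: 5th and 95th percentiles), and diamonds give the mean of the CESR-DN genes, the study's list of genes repressed in the core stress response. The member medians are 0.06 to 0.08 on the wild-type DMSO arrays and -0.13 to -0.02 on the wild-type LatA arrays.

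The first comparison asked how wild-type cells responded to LatA. More of the 79 genes were lower with LatA than higher, by small amounts. In limma, with p-values adjusted over all probe sets, 41 of the 79 genes passed an adjusted p of 0.05, 35 of them lower with LatA and 6 higher. Those 35 were 44.3% of the genes, whereas 25.5% of all probe sets passed as lower, and the 6 were 7.59%, whereas 17.5% of all probe sets passed as higher. The median log2 difference was -0.20 over the 79 genes and -0.03 over all probe sets. Without regard to sign, the median difference was 0.23 over the 79 genes and 0.23 over all probe sets. With DMSO the members varied less between replicates than all probe sets, and the part of this in the shares was not tested. Few changes were large: 2 genes passed both the adjusted p and a fold change above 1.5, which was 2.53% against 14.5% of all probe sets. These were *prp43*, lower by 1.84-fold, and *cwf15*, higher by 1.58-fold. The differences of the 79 genes had an SD of 0.25, against 0.48 over all probe sets. In RNA from whole cultures, fewer cells of one kind and less RNA per cell cannot be told apart.

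The count of 41 was between 23 and 44 when single arrays were left out. It was 23 without wild-type DMSO replicate 2 or LatA replicate 3, 24 without DMSO replicate 3 and 26 without LatA replicate 2. In each of these refits the share of members lower with LatA, 24.1% or more, exceeded the share of all probe sets. The mean of the CESR-DN genes moved with the same groups. It lay between 0.35 and 0.65 on the wild-type DMSO arrays and between -0.24 and -0.16 on the wild-type LatA arrays. In *set3Δ* it lay between 0.03 and 0.37 with DMSO and between -0.25 and -0.14 with LatA. None of the 79 genes is in the CESR-DN or CESR-UP list, and the part of the stress response in the differences of the 79 genes was not tested.

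All 7 Sm genes had negative differences in wild type, as had 55.1% of all probe sets. Of the Sm genes 5 passed as lower, 71.4% against 25.5% of all probe sets. *smd2*, for one of the SmD proteins, stood at 0.29, 0.42 and 0.59 with DMSO and at -0.14, -0.06 and -0.01 with LatA. The groups did not overlap, and the log2 difference was -0.50 ± 0.09 (SE, n = 3 per group, limma adjusted p = 0.0081). *smf1*, for SmF, stood at 0.32, 0.32 and 0.50 with DMSO and at -0.14, 0.03 and -0.03 with LatA, a difference of -0.43 (limma adjusted p = 0.0083). *smg1*, *smd3* and *sme1* were lower by differences of -0.37, -0.27 and -0.22. *smd1* and *smb1* were at -0.25 and -0.15 and did not pass.

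In the Lsm ring, *lsm7*, *lsm3*, *lsm1*, *lsm5* and *lsm4* were lower with LatA in wild type, with differences of -0.43, -0.36, -0.28, -0.27 and -0.23. They were 62.5% of the Lsm genes, against 25.5% of all probe sets that passed as lower. *lsm7* stood at 0.31, 0.34 and 0.42 with DMSO and at -0.06, -0.01 and -0.15 with LatA, without overlap. *lsm8*, which marks the nuclear ring on U6, was at -0.07, while *lsm1*, which marks the cytoplasmic ring, was among the 5 that fell. *lsm2* and *lsm6*, at 0.00 and -0.04, did not pass, and none of the 8 was higher.

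Of the 9 U1 genes, 5 were lower with LatA in wild type and none was higher. The share lower was 55.6%, against 25.5% of all probe sets. *usp108* stood at 0.23, 0.50 and 0.45 with DMSO and at 0.01, -0.08 and -0.09 with LatA, a difference of -0.45 ± 0.09 (SE, n = 3 per group, limma adjusted p = 0.0095). *usp102*, which encodes a core U1 protein, was lower by a difference of -0.37. *usp105*, *usp106* and *usp104*, the counterparts of budding yeast Prp39, Luc7 and Prp40, were at -0.33, -0.23 and -0.21. *usp101*, for U1-70K, was at 0.30 and did not pass, nor did *usp103* at -0.13, *usp107* at -0.15 or *usp109* at -0.21.

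Among the genes of the U2 snRNP and branch site, 4 of 9 fell in wild type, 44.4% against 25.5% of all probe sets. *sap49* and *prp12*, which encode subunits of SF3b, the part of the U2 snRNP that holds the branch site, had differences of -0.34 and -0.26. *sap145* of SF3b and *sap114* of SF3a were both at -0.25. *sap49* stood at 0.00, -0.01 and 0.06 with DMSO and at -0.29, -0.35 and -0.33 with LatA, so the arrays of a group differed by little. *prp10*, which encodes the largest SF3b subunit, was at 0.24, and *prp2*, the large subunit of U2AF, was at -0.19, and neither passed.

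The tri-snRNP genes went both ways. Of these, 37.5% passed as lower and 25% as higher, against 25.5% and 17.5% of all probe sets. *cwf10*, for the U5 GTPase, *prp3*, a U4/U6 protein, and *prp38* were lower, with differences of -0.29, -0.25 and -0.22. *prp28*, the RNA helicase that displaces U1 from the start of the intron, was higher. It stood at -0.19, -0.20 and -0.25 with DMSO and at 0.25, 0.09 and 0.14 with LatA, a difference of 0.37 ± 0.06 (SE, n = 3 per group, limma adjusted p = 0.0064). *prp31* was also higher, at 0.19. *spp42*, which encodes the central U5 protein known as Prp8 in budding yeast, was at 0.08, *prp1* was at -0.04 and the protein kinase gene *prp4* was at -0.24, and these 3 did not pass.

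The Prp19-Cdc5 and cwf genes held 7 that fell in wild type, 3 that rose and 15 that did not pass. The 28% lower and 12% higher lay near or below the 25.5% and 17.5% of all probe sets. *cwf18* stood at 0.26, 0.49 and 0.61 with DMSO and at -0.08, -0.07 and -0.21 with LatA, a difference of -0.57 ± 0.10 (SE, n = 3 per group, limma adjusted p = 0.0079). *cwf19*, *prp19*, *prp17*, *cwf12*, *cwf3* and *cwf11* were lower by smaller amounts, from -0.34 in *cwf19* to -0.16 in *cwf11*. *prp19* encodes the ubiquitin ligase that names the complex, and its difference was -0.29. The genes that rose were *cwf15*, *cwf23* and *cwf16*.

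*cwf15* stood at -0.19, -0.71 and -0.73 with DMSO and at 0.24, 0.15 and -0.05 with LatA, a difference of 0.66 ± 0.17 (SE, n = 3 per group, limma adjusted p = 0.022). DMSO replicate 1 lay well above the other two, and its SD of 0.31 in that group was the largest of any member there. The gene did not meet both criteria without wild-type DMSO replicate 2 or 3 or LatA replicate 1 or 2, where the difference was 0.58, 0.56, 0.60 and 0.64. *cwf23*, which encodes a DnaJ-type protein, stood at -0.33, -0.31 and -0.30 with DMSO and at 0.34, 0.10 and 0.18 with LatA, a difference of 0.52 (limma adjusted p = 0.0052). *cwf16* rose by 0.34.

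The largest difference of the 79 was that of *prp43*. Its product is the helicase that takes the spent spliceosome apart, and in budding yeast it also acts in ribosome assembly. *prp43* stood at 0.41, 0.71 and 0.69 with DMSO and at -0.13, -0.34 and -0.37 with LatA, and the groups did not overlap. The log2 difference was -0.88 ± 0.11 (SE, n = 3 per group, limma adjusted p = 0.0049). *prp22*, the helicase that releases the spliced mRNA, was lower by a difference of -0.31, while *prp16*, the helicase of the second splicing step, was higher by 0.40. *prp18*, at -0.14, did not pass. *prp16* passed in some refits only: it was lost without wild-type DMSO replicate 2 (0.34) or 3 (0.35) and without LatA replicate 1 (0.33), 2 (0.43) or 3 (0.45).

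Of the SR proteins, *srp1* was lower in wild type at -0.28, and *srp2* was at -0.08 and did not pass. Among the 7 genes that are not splicing factors, *sap1*, *srp14* and *srp72* were lower, at -0.44, -0.30 and -0.24, and the other 4 did not pass. With all 7 set aside, 38 of the 72 remaining genes passed, or 52.8% against 43% of all probe sets. Of the 72, 44.4% passed as lower and 8.33%, 6 genes, as higher, against 25.5% and 17.5% of all probe sets. Their median was -0.21.

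**Figure D2:**
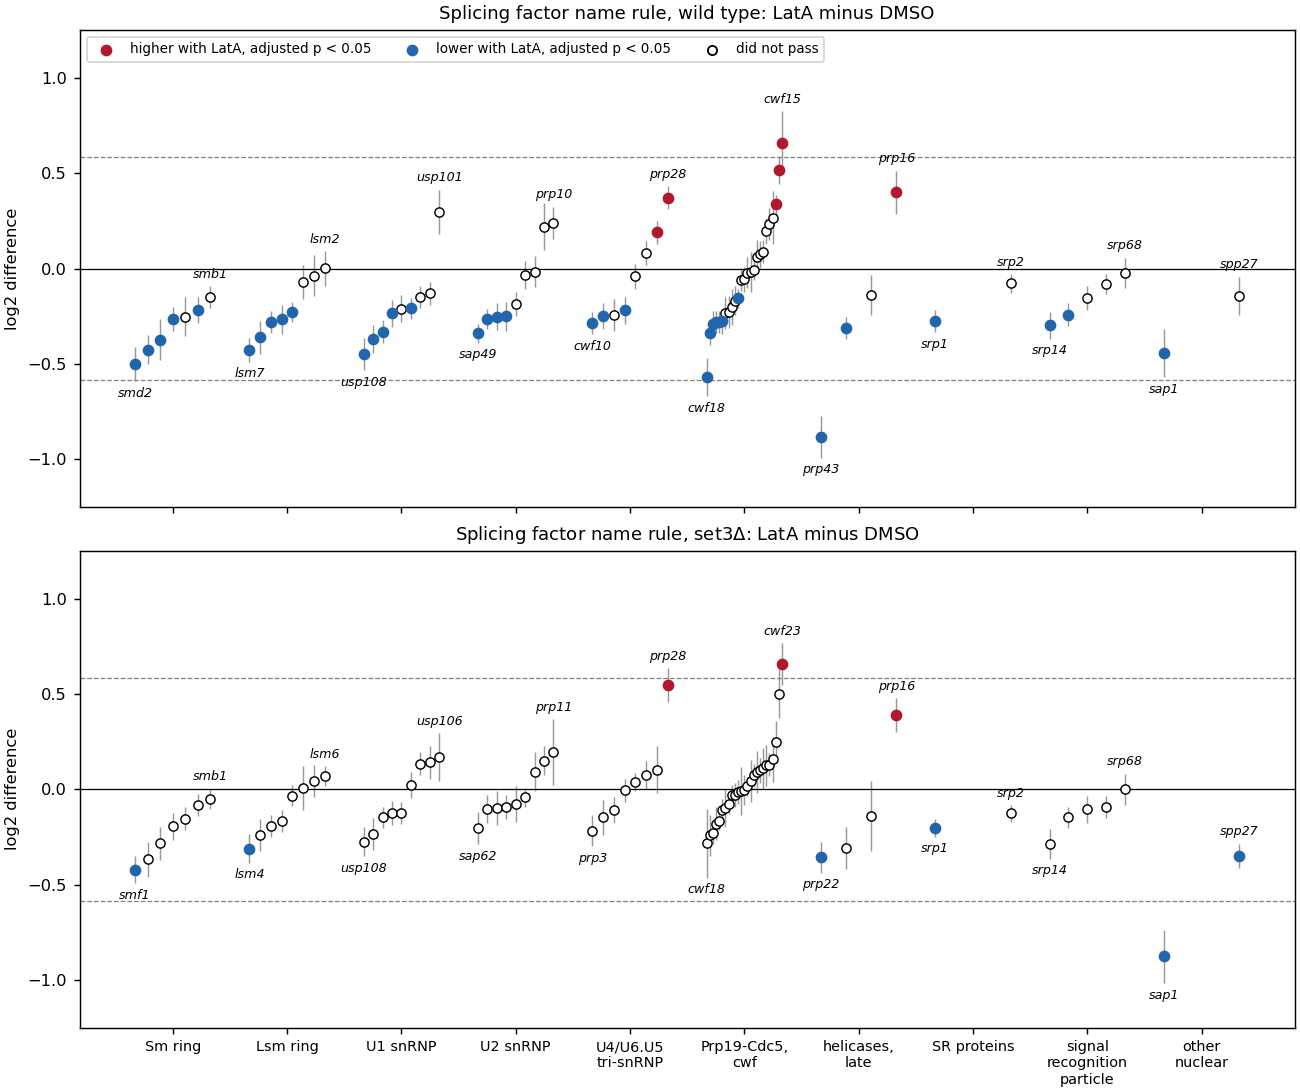
Each point is 1 of the 79 genes, placed by role, with its log2 difference LatA minus DMSO (bars: SE, n = 3 arrays per group, upper panel wild type, lower panel *set3Δ*). Filled points passed an adjusted p of 0.05, which 41 genes did in wild type and 9 in *set3Δ*, dashed lines mark a 1.5-fold change, and the lowest and highest gene of each role are named.

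The same comparison was made in *set3Δ*, where fewer of these genes passed. At any fold change 9 genes passed, 6 lower and 3 higher. The 6 were *sap1*, *smf1*, *prp22*, *spp27*, *lsm4* and *srp1*, or 7.59% against 6% of all probe sets, and the 3 were *cwf23*, *prp28* and *prp16*, or 3.8% against 6.43%, so both shares lay near or below those of the array. Both criteria were passed by *cwf23* and *sap1*, 2.53% against 3.61% of all probe sets. The median difference was -0.08, against -0.02 over all probe sets. No member passed when DMSO replicate 1, or LatA replicate 1 or 2, was left out, refits that left 20, 0 and 0 of all probe sets, and the count was 5 without DMSO replicate 2 and 2 without LatA replicate 3.

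*cwf23* stood at -0.16, -0.34 and -0.10 in *set3Δ* with DMSO and at 0.65, 0.40 and 0.32 with LatA, a difference of 0.66 ± 0.11 (SE, n = 3 per group, limma adjusted p = 0.027). *prp28* stood at -0.27, -0.12 and -0.09 with DMSO and at 0.48, 0.44 and 0.22 with LatA, a difference of 0.55 (limma adjusted p = 0.026). *prp16* was higher by 0.39. In all 3 of these genes the *set3Δ* groups did not overlap, as in wild type. All 3 had passed in both strains, so the separation adds little to the test. The share of all probe sets without overlap is not given.

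*sap1* stood at 0.61, 0.11 and 0.46 in *set3Δ* with DMSO and at -0.54, -0.56 and -0.33 with LatA, a difference of -0.88 ± 0.14 (SE, n = 3 per group, limma adjusted p = 0.025). DMSO replicate 2 was the lowest of its group, and the groups still did not overlap. *smf1* stood at 0.14, 0.14 and -0.04 with DMSO and at -0.30, -0.42 and -0.30 with LatA, a difference of -0.42. *prp22*, *spp27*, *lsm4* and *srp1* were lower by differences of -0.36, -0.35, -0.31 and -0.20. The other 6 Sm genes were also negative in *set3Δ*, from -0.37 in *smg1* to -0.05 in *smb1*, and did not pass. *prp43* was at -0.31 and did not pass (limma adjusted p = 0.11).

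In the refits without DMSO replicate 1, LatA replicate 1 and LatA replicate 2 of *set3Δ*, in that order, the values of *cwf23* were 0.68, 0.56 and 0.68, those of *prp28* 0.49, 0.50 and 0.52, those of *sap1* -0.77, -0.85 and -0.83, and those of *smf1* -0.39, -0.44 and -0.38. The directions were thus unchanged while no gene passed. Without LatA replicate 3, *sap1* was at -0.95 and *smf1* at -0.44, and neither passed. *prp16* did not pass without any one of the 6 arrays, with values from 0.34 to 0.46. *prp22* and *spp27* passed in 3 and 5 of 12 refits that left out an array or changed the model. Without DMSO replicate 2, the array that stood apart, *cwf23* was at 0.58, just under a 1.5-fold change, and *sap1* still passed both criteria.

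Set side by side, the LatA responses of the strains share no array. Of the 41 genes that passed in wild type and the 9 in *set3Δ*, 8 passed in both, which was 19.5% of the first list and 88.9% of the second, and each of the 8 went the same way. The exception in *set3Δ* was *spp27*, at -0.14 in wild type. This overlap was not counted over all probe sets, so it is not shown to be particular to these genes. The sign was the same in 63 of the 79 genes, or 79.7% against 77.6% of all probe sets. Across the 79 genes the responses had a Pearson r of 0.77 and a Spearman rho of 0.74, and across all probe sets r was 0.66. These describe genes of the same arrays, which are not independent replicates.

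The response of *set3Δ* was nearer 0 in 60 of the 79 genes, 75.9% against 68.4% of all probe sets. Of the 35 genes lower in wild type, 32 were nearer 0 in *set3Δ*, and 3 of the 35 had the opposite sign. Since those 35 were chosen for passing in wild type, values nearer 0 in other arrays carry little weight.

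**Figure D3:**
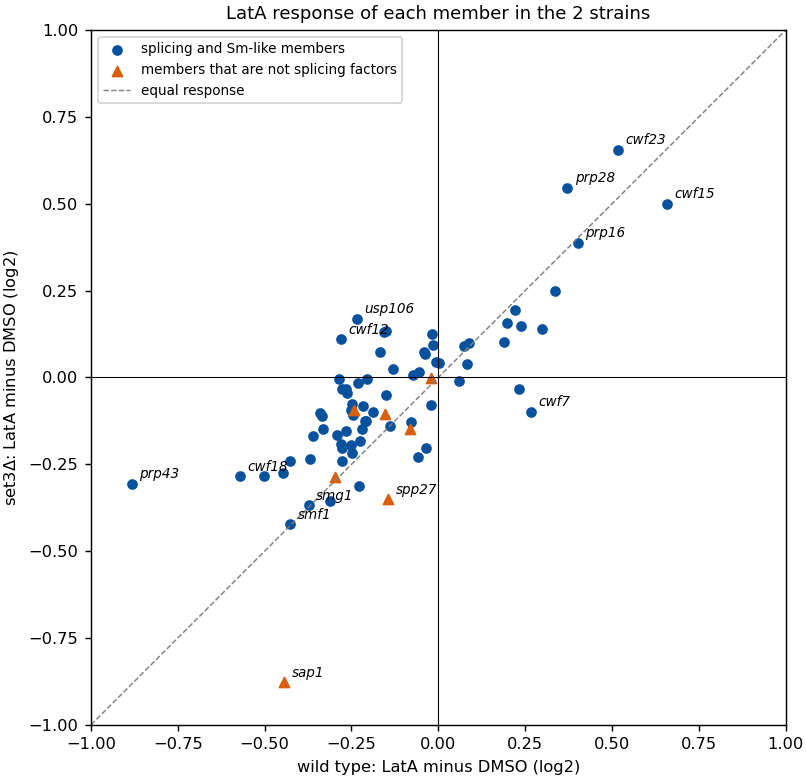
Each point is 1 of the 79 genes, with the log2 difference LatA minus DMSO in wild type on the horizontal axis and in *set3Δ* on the vertical axis. Circles are the 72 splicing and Sm-like genes and triangles the 7 others, the dashed line marks equal responses, and 63 genes have the same sign in both strains.

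The difference between the responses was tested on all 12 arrays. No member passed by either rule in limma, where 0.0615% of all probe sets passed by each rule, and 14 members had an unadjusted p below 0.05, 17.7% against 20.2% of all probe sets. It is therefore not shown for any of these genes that the strains responded differently. *prp43* had the largest such difference, 0.58 (95% interval 0.21 to 0.94, limma adjusted p = 0.14), being the gene that fell from 0.60 to -0.28 on average in wild type and stood at 0.21 and -0.10 in *set3Δ*. *usp107*, a U1 gene, stood at 0.01, 0.04 and 0.13 with DMSO and at -0.06, -0.08 and -0.14 with LatA in wild type. In *set3Δ* it stood at 0.00, -0.04 and -0.12 with DMSO and at 0.13, 0.11 and 0.00 with LatA. The groups lay apart in opposite directions in the 2 strains, in *set3Δ* by less than the rounding of these values, with differences of -0.15 and 0.13, and the test of the difference gave 0.28 (limma adjusted p = 0.14). The differences between the responses were above 0 in all 7 Sm genes, though 0.00 after rounding in *smf1* and *smg1*, and with each array centred on its median they were above 0 in 5 of the 7. Of the members 73.4% were above 0, against 55.9% of all probe sets. The same wild-type DMSO arrays enter this test, the wild-type response and the strain comparison with DMSO below. The signs of the Sm genes there are thus not independent. Without wild-type DMSO replicate 1, 5 members passed and 1 passed both criteria. The share of all probe sets in that refit is not given, so no excess of members can be read from these counts.

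The strains were next compared within each treatment. With DMSO no member passed by either rule in limma, as 0.123% of all probe sets passed both criteria and 0.164% passed at any fold change. An unadjusted p below 0.05 was found for 18 members, 22.8%, the same share as over all probe sets (22.8%). All 7 Sm and all 8 Lsm genes had negative differences, *set3Δ* minus wild type, from -0.32 in *smg1* to -0.03 in *smb1* and from -0.24 in *lsm3* to -0.03 in *lsm1*, and none of these 15 passed. The other roles went otherwise: 7 of 9 U1 genes, 14 of 25 Prp19-Cdc5 and cwf genes, 4 of 8 tri-snRNP genes, 2 of 4 late factors, 2 of 9 U2 genes and neither SR gene were negative. Over all 79 genes 48 were negative, 60.8% against 52.7% of all probe sets. *prp43* was at -0.40 (95% interval -0.73 to -0.07, limma adjusted p = 0.19) and *cwf15* at 0.40 (95% interval -0.08 to 0.88), so differences of the size of a 1.5-fold change lay inside both intervals.

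With LatA 7 members passed at any fold change and none passed both criteria, the background being 3.16% of all probe sets for both criteria. Higher in *set3Δ* were *sap49*, *srp1*, *cwf11* and *usp104*, 5.06% of the members against 9.8% of all probe sets. Lower were *smg1*, *smf1* and *srp14*, 3.8% against 8.42%. Both shares lay below those of the array.

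*sap49* had the clearest difference. It stood at -0.29, -0.35 and -0.33 in wild type with LatA and at 0.00, 0.04 and -0.06 in *set3Δ* with LatA, a difference of 0.32 ± 0.05 (SE, n = 3 per group, limma adjusted p = 0.0097). The LatA arrays of *set3Δ* stood at the level of the wild-type DMSO arrays, and the gene passed in each of the 12 refits. With DMSO *set3Δ* stood at 0.23, 0.02 and 0.04. The LatA difference in *set3Δ* was -0.10 and did not pass, and neither did the difference between the responses. *srp1* stood at -0.24, -0.23 and -0.35 in wild type and at 0.00, -0.05 and 0.00 in *set3Δ*, a difference of 0.26. *srp1* was also higher in *set3Δ* with DMSO by 0.19, which did not pass. *cwf11*, the counterpart of the human helicase-like protein Aquarius, and *usp104* were higher by 0.26 and 0.22.

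*smf1*, *smg1* and *srp14* were lower in *set3Δ* with LatA by differences of -0.30, -0.31 and -0.28. Their differences with DMSO were -0.30, -0.32 and -0.29, and did not pass there. *smg1* stood at -0.21, 0.04 and -0.03 in wild type with LatA and at -0.31, -0.32 and -0.50 in *set3Δ*, without overlap.

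Of the 7 genes, *sap49* alone passed when wild-type LatA replicate 2, *set3Δ* LatA replicate 1 or *set3Δ* LatA replicate 2 was left out. *sap49* and *srp1* passed without wild-type LatA replicate 3, and 3 members passed without *set3Δ* LatA replicate 3. Over the refits that lost it, *srp1* lay between 0.25 and 0.28, *cwf11* between 0.24 and 0.26, and *usp104* between 0.19 and 0.24. The 3 lower genes lay between -0.35 and -0.22.

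**Figure D4:**
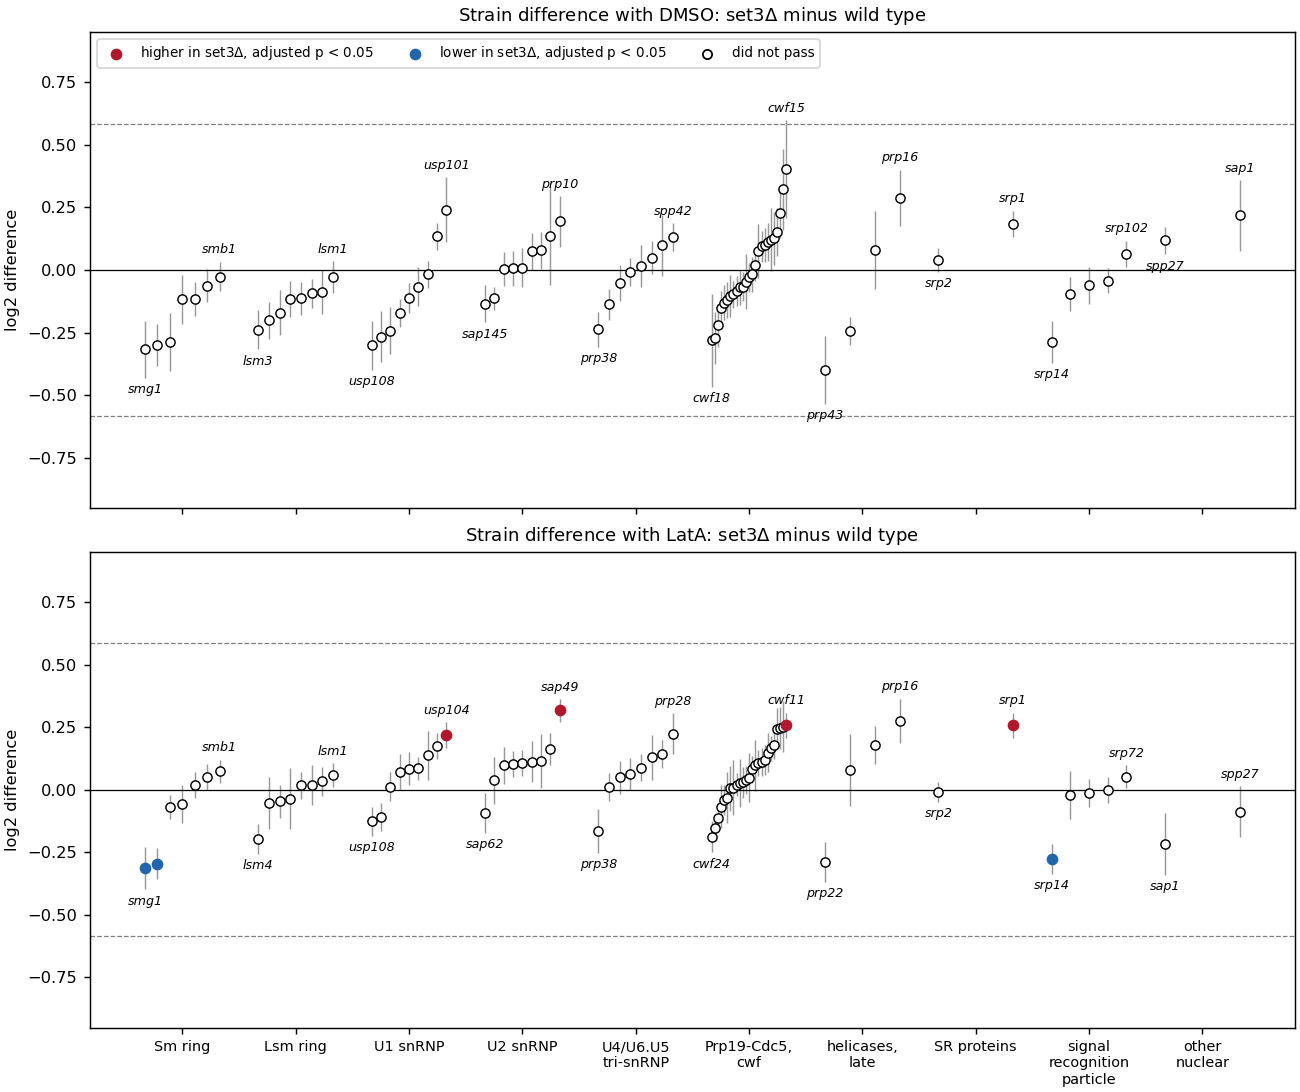
Each point is 1 of the 79 genes, placed by role, with its log2 difference *set3Δ* minus wild type (bars: SE, n = 3 arrays per group, upper panel DMSO, lower panel LatA). No gene passed an adjusted p of 0.05 with DMSO and 7 did with LatA, the dashed lines mark a 1.5-fold change, and the lowest and highest gene of each role are named.

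**Figure D5:**
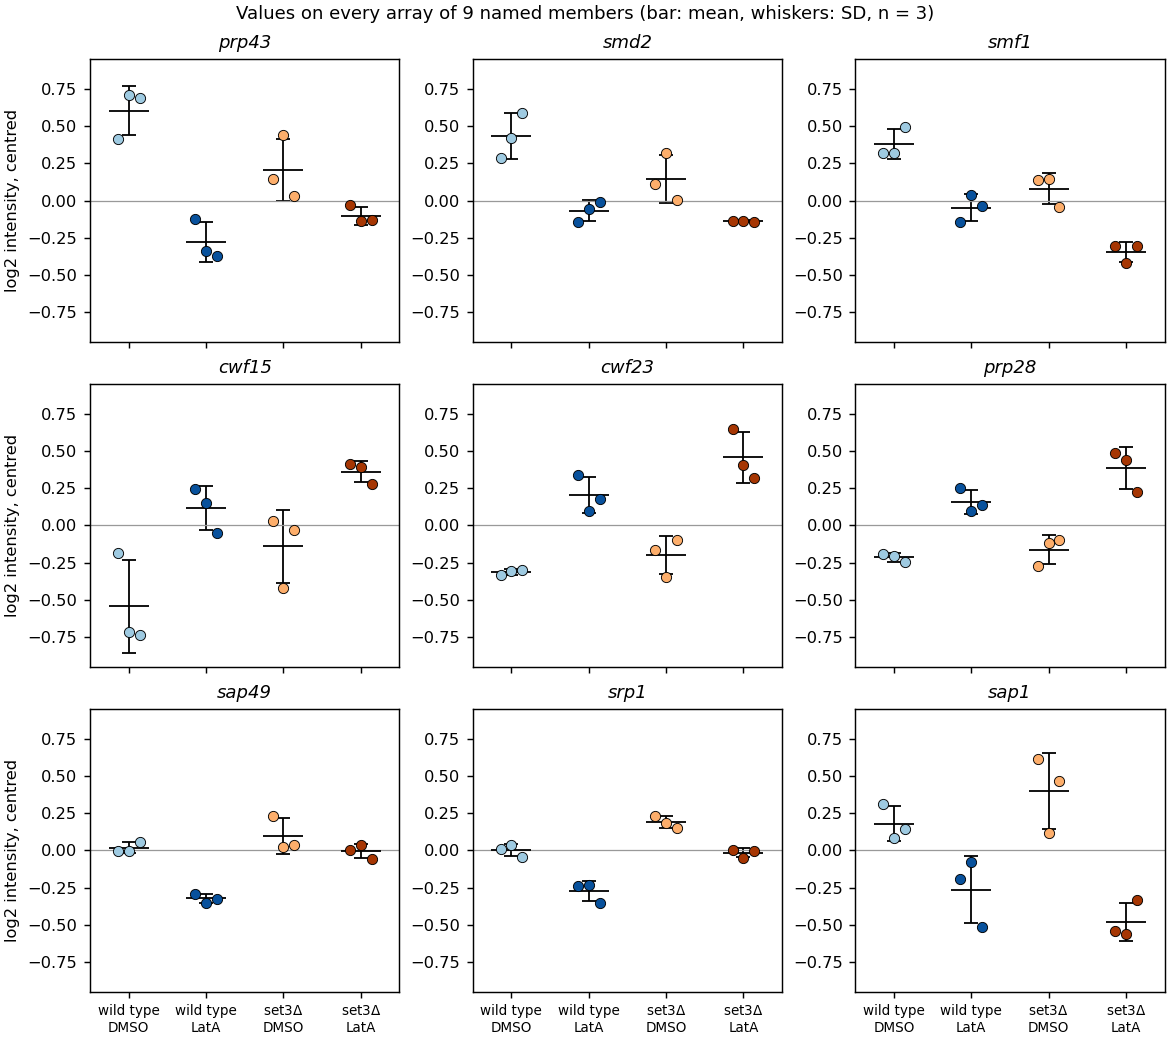
Points give the log2 intensity of 9 genes on each of the 12 arrays, relative to the median of the probe set, with the mean (bar) and SD (whiskers) of each group of 3. *prp43* lies between 0.41 and 0.71 in wild type with DMSO and between -0.37 and -0.13 with LatA, and *sap49* lies lowest in wild type with LatA.

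In the RefSeq gene order, 2 pairs of members were next to each other among protein-coding genes. *prp11* and *cwf23* follow each other on chromosome III. *cwf23* rose in both strains, while *prp11*, for an RNA helicase of the U2 step, was at 0.22 in wild type and 0.19 in *set3Δ* and did not pass. *cwf22* and *cwf24*, on chromosome II, were at -0.23 and -0.02 in wild type and passed in neither strain.

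Splicing genes with other names were counted beside the members. A list of them held 29 genes on the array, of which *sad1*, *mud1* and *gcd10* were set aside because these symbols belong to unrelated genes in fission yeast, which left 26. In wild type 10 of the 26 passed, 5 higher and 5 lower with LatA, and 2 passed both criteria, the U5 gene *dim1* at -0.64 and *sde2*, for a splicing regulator, at 0.61. The shares were near or below those of the array, 19.2% higher against 17.5%, 19.2% lower against 25.5% and 7.69% by both criteria against 14.5%. The median was 0.12, above 0, unlike that of the members. Over the whole list of 29, 12 passed, 5 higher and 7 lower, or 17.2% and 24.1% of the list. The genes were set aside after the list was fixed. Of them *gcd10* at -0.56 and *sad1* at -0.48 had passed as lower, and *mud1* had not passed. The kinase gene *dsk1*, whose product phosphorylates SR proteins, rose by 0.20 in wild type and 0.28 in *set3Δ*, and the cyclophilin gene *cyp1* fell by 0.43 and 0.29. These were the 2 of the 26 that passed in *set3Δ*, where 3 of the 29 did, 7.69% and 10.3% against 12.4% of all probe sets. *cdc5*, which names the Prp19-Cdc5 complex, and *brr2*, the U5 helicase, were at 0.14 and 0.19 in wild type and did not pass.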

How the data were processed

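The deposited table holds log2 intensities of 12 Affymetrix Yeast Genome 2.0 arrays, which the authors normalized by RMA in GeneSpring GX. Each probe set was centred on its median over the 12 arrays, as read from the values, so signal over background could not be judged and dim probe sets were kept. The number of arrays limits the precision. Probe sets were named with the platform annotation and checked against RefSeq genes, and 79 of 79 members matched. Columns were matched to samples by their labels.

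Groups were compared in limma 3.58.1 (R 4.3.3, statmod 1.5.0), on the 6 arrays of each pair and on all 12 for the difference between responses. P-values were adjusted by Benjamini-Hochberg over 4880 probe sets. Genes passed both criteria at an adjusted p below 0.05 and a fold change above 1.5. The fits were tested on simulated data. Named genes were those passing both criteria, the 4 largest changes in each direction at an adjusted p below 0.05, the 2 largest of each role, the Sm and Lsm genes and a few central factors; a few others are named to complete a role. Members and lists were chosen with earlier results of these data known. CESR-UP and CESR-DN are the study's lists of core stress genes, taken by it from earlier work. No sequences or coordinates are reported. Figures were drawn with matplotlib 3.10.9.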

Additional observations from a re-analysis of the deposited data

How the results depend on the processing

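Of 22 named gene differences followed through 12 refits each, none changed sign, 7 passed throughout and 15 lost the adjusted p at least once. With each array centred on its median, 57 rather than 62 of the 79 genes were negative in wild type. In wild type the genes passing both criteria (2) numbered 1 with each gene's own variance, 30 above 1.2-fold, 0 above 2-fold and 1 at an adjusted p below 0.01, where 13 passed at any fold change. In *set3Δ* (2 and 9) they numbered 0 with the own variance, 8 above 1.2-fold, 0 above 2-fold and 0 at 0.01, and at any fold change 18 passed with all 12 arrays in one fit, 0 with the own variance, 0 at 0.01 and 19 at 0.1. Of all probe sets, 607 passed at any fold change in *set3Δ*, 1072 with all 12 arrays and 19 with the own variance. Between strains with DMSO (0 and 0) 4 passed at any fold change with 12 arrays and 5 with array weights, whose estimate stopped short of convergence. Between strains with LatA (0 and 7) 4 passed above 1.2-fold, and at any fold change 1 passed with the own variance, 13 with arrays centred on their medians, 20 with array weights, 1 at 0.01 and 17 at 0.1. Of all 4880 probe sets, 889 passed this comparison at any fold change in the main fit. The number was 282 with the own variance, 1085 with centred arrays and 1500 with array weights. Between the responses (0 and 0) array weights gave 3 and 16. Leaving out 1 array gave 1 to 3 and 23 to 44 in wild type, 0 to 2 and 0 to 13 in *set3Δ*, 0 and 0 between strains with DMSO, 0 and 1 to 10 with LatA, and 0 to 1 and 0 to 5 between the responses. Of all probe sets, 708 passed both criteria in wild type in the main fit and 551 with the own variance. Shares of all probe sets are not given for the changed thresholds. Nor are they given for the refits of the strains with DMSO or of the responses. No excess of members can be read from those counts. The cause of these changes was not tested.

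With the replicate number as a block, 2 and 29 members passed in wild type, 0 and 0 in *set3Δ*, 0 and 0 between strains with DMSO, 0 and 9 with LatA, and 0 and 0 between the responses. Of all probe sets, 1772 then passed at any fold change in wild type, 0 in *set3Δ* and 872 between strains with LatA. Same-numbered arrays did not deviate together throughout, with correlations from -0.50 to 0.56, so the numbers were not taken as pairs. Removing the probe sets designed to match more than one transcript changed no count. No filter on dim probe sets could be run on centred values.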
